A study of Macaca mulatta with 304 samples.

Results

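Blood drawn on Day 270 after irradiation of the thorax was compared with blood drawn from the same animals 2 days before irradiation. The comparison took every rhesus macaque that had a count column for both draws, paired by the animal number, and this gave 12 libraries of 6 animals out of 304 libraries of 28 animals. The study followed whole blood RNA of adult rhesus macaques (Macaca mulatta) after 9.8 or 10.7 Gy to the upper thorax, each animal serving as its own control. Males B1003 and B1004 and females B1502, B1503 and B1505 had received 9.8 Gy, and female B2502 had received 10.7 Gy. Day 270 was the final draw, so the 6 animals are survivors, and the higher dose cannot be told apart from the single animal that received it. All animals were given the analgesic tramadol or buprenorphine during the early weeks, animals that breathed fast were given a tapering course of dexamethasone, and which of the 6 received dexamethasone was not given in the sources used here. RNA came from blood lysed whole in the collection tube.

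Blood RNA is a mixture in which each cell type carries its own transcripts. B cells carry CD79A and CD79B, neutrophils and monocytes carry receptors for bacteria and inflammatory cytokines, platelets carry RNA from megakaryocytes, and young red cells still hold transcripts of haem synthesis and of the membrane skeleton. Lymphocytes, and B cells above all, are among the cells most sensitive to radiation, and lung irradiation is known for pneumonitis and fibrosis that appear months after exposure. In bulk blood, fewer cells of a type and less RNA per cell cannot be told apart.

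The control libraries held 10851683 to 13575225 counts and the Day 270 libraries 6383774 to 8394113, so every Day 270 library was shallower than every control. The 6 controls carried library numbers between 21 and 97, B1003 carried a number of a later range on Day 270, and the other 5 Day 270 libraries carried no number, so library series and day cannot be told apart in this comparison. Upper quartile scaling factors were 0.621 in B1503 and 0.608 in B2502 on Day 270, against 0.944 to 1.15 in the other 10 libraries, and these 2 libraries stand apart. Results are therefore also given for the 4 other animals, a choice made after the data were seen. Leukocyte markers such as PTPRC, CSF3R, CD3E and MS4A1, the red cell marker ALAS2 and the platelet marker PPBP were counted in all 12 libraries. Of markers of other tissues, KRT5, KRT14, COL1A1, COL3A1, SFTPC, SCGB1A1, EPCAM and ALB reached at most 2.58 CPM, the count divided by the library total in units of 1e+06 counts, without scaling.

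BCL7A, a subunit of the BAF chromatin remodelling complex that was found at a translocation in a B cell lymphoma, was the 1 gene of 13751 tested that passed both thresholds (0.00727%), the thresholds being 0.05 for the edgeR adjusted p and a 1.5-fold difference. Scaled CPM of BCL7A in control blood was 32.1 in B1003, 39.2 in B1004, 37.5 in B1502, 24.3 in B1503, 26 in B1505 and 63.2 in B2502. On Day 270 it was 13.1, 7.02, 7.68, 4.29, 5.94 and 5.72 CPM in the same order. The lowest control lay above the highest Day 270 value. The gene lies at chr11:121867054-121910264 on the plus strand of Mmul_10. BCL7A fell from 37.1 ± 14.1 to 7.29 ± 3.07 CPM (SD, n = 6), a log2 fold change of -2.33 (SE 0.28, edgeR quasi-likelihood test blocked by animal, Benjamini-Hochberg adjusted p = 0.0325). This call was lost when B1004, B1502, B1503 or B1505 was left out, with adjusted p between 0.0952 and 0.137 and log2 fold changes between -2.37 and -2.30. In the 4 animals other than B1503 and B2502 the log2 fold change was -2.02 (edgeR adjusted p = 0.000163), and with all samples of the series and the library series as a covariate it was -2.24.

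After BCL7A the next lowest adjusted p was 0.0527, and 2204 genes had an edgeR adjusted p up to 0.1 with a 1.5-fold difference, of which 1031 were higher and 1173 lower. At an unadjusted p under 0.05 and the same fold, 3623 genes were found (26.3%), 1535 higher and 2088 lower. A total of 995 genes were higher in 6 of 6 animals (7.24%) and 1741 were lower in 6 of 6 (12.7%). Every Day 270 value was above every control value in 0.967% of genes and below in 2.16%. Counts of list members in 6 of 6 or without overlap are to be read against these shares of all genes. The median log2 fold change of all genes was -0.14 with upper quartile scaling and -0.04 with TMM scaling, and list medians over the 6 animals are to be read against -0.14. List medians per animal are to be read against the median of all genes in that animal. This was 0.02 in B1003, -0.03 in B1004, -0.08 in B1502, -0.40 in B1503, -0.08 in B1505 and -0.45 in B2502.

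The animals differed widely in the size of the difference. Genes over 2-fold from the own control numbered 435 in B1003, 1532 in B1505, 1661 in B1502, 1990 in B1004, 6741 in B1503 and 7182 in B2502. Across genes, which are not independent, the differences of B1503 and B2502 had a Pearson correlation of 0.77, while B1003 had correlations between 0.03 and 0.29 with the other 5 animals. In B1003 the 435 genes of Day 270 were the fewest of its 15 irradiated draws, which reached 4480 on Day 120, whereas in B1503 and B2502 Day 270 had the most genes of any draw, after 5565 and 5945 on Day 240.

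**Figure D1:**
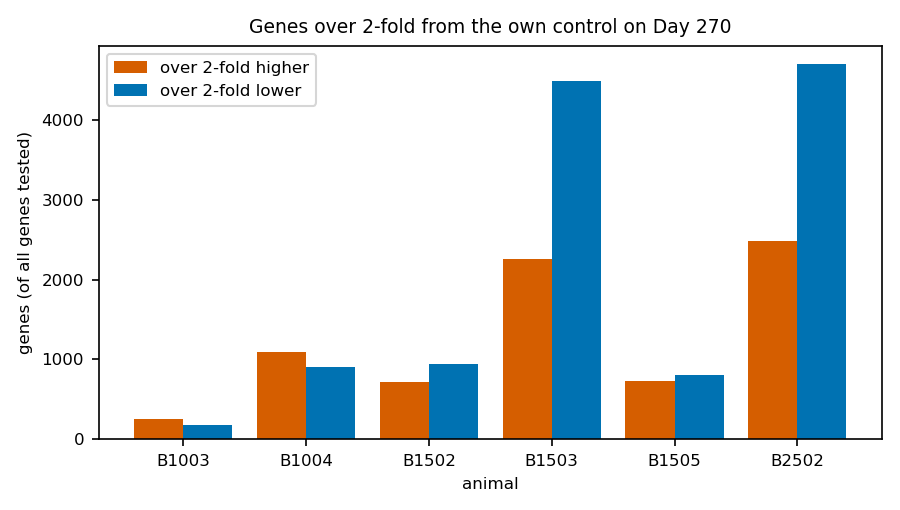
Bars show the number of genes (of 13751 tested) more than 2-fold higher or lower on Day 270 than in the own control, for each of the 6 animals. B1003 had 254 higher and 181 lower genes, and B2502 had 2481 higher and 4701 lower genes.

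B1003 had the fewest genes over 2-fold, and its Day 270 library was the 1 that carried a number. Leaving out B1003 gave 1825 genes past both thresholds (13.3%), 910 higher (6.62%) and 915 lower (6.65%). Of the fits leaving out 1 animal this gave the most calls, so results without B1003 lean towards more calls and are no independent support. Leaving out B1503 and B2502 together gave 578 genes, 4.2% of those tested (2.49% higher and 1.71% lower). Leaving out B1004, B1502, B1503 or B1505 alone gave 0 genes with edgeR, although 2287 to 3753 genes then had an unadjusted p under 0.05 with the fold change. DESeq2 on the 12 libraries called 2383 genes, and edgeR without the animal as a block called 5. Calls in these smaller sets are given for the B cell, MHC class II, T cell, erythroid, interleukin 1 and 18, neutrophil and platelet lists, and for the interferon list in the 4 animals.

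B cell genes were the lowest group. Of 21 tested members, 0 passed both thresholds with 6 animals. A total of 15 were lower in 6 of 6 animals (background 12.7%) and 3 did not overlap (background 2.16%). The median log2 fold change was -1.84. CD79B, a signalling chain of the B cell receptor, had 206.1 CPM in B1003, 330 in B1004, 153 in B1502, 152 in B1503, 164 in B1505 and 365 in B2502 before irradiation. On Day 270 it had 155, 71.4, 32, 6.43, 37.5 and 7.39 CPM in the same order. The value of B1003 lay within the control range and the other 5 lay below it. The log2 fold change of CD79B was -2.72 (SE 0.55, edgeR adjusted p = 0.0565), and it was -3.20 without B1003 (edgeR adjusted p = 0.00996).

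CD22, an inhibitory receptor of B cells, ranged from 44.8 to 177 CPM (median 74.2) in controls and from 2.34 to 43.9 (median 15.2) on Day 270, without overlap. CD22 was lower in 6 of 6 animals, with a log2 fold change of -2.37 (SE 0.43, edgeR adjusted p = 0.0527). PAX5, the factor that keeps B cell identity, had 3.51 CPM in B1503 and 198.5 CPM in B1003 on Day 270, against 144 to 385 CPM in controls. The smallest log2 fold changes in the list were those of CD37, RALGPS2 and VPREB3, between -0.58 and -0.34. Without B1003 18 of the 21 members were called lower (background 6.65%), and in the 4 animals other than B1503 and B2502 15 were called lower (background 1.71%). List medians per animal were -0.28 in B1003, -1.08 in B1004, -1.57 in B1502, -3.61 in B1503, -1.40 in B1505 and -3.81 in B2502.

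**Figure D2:**
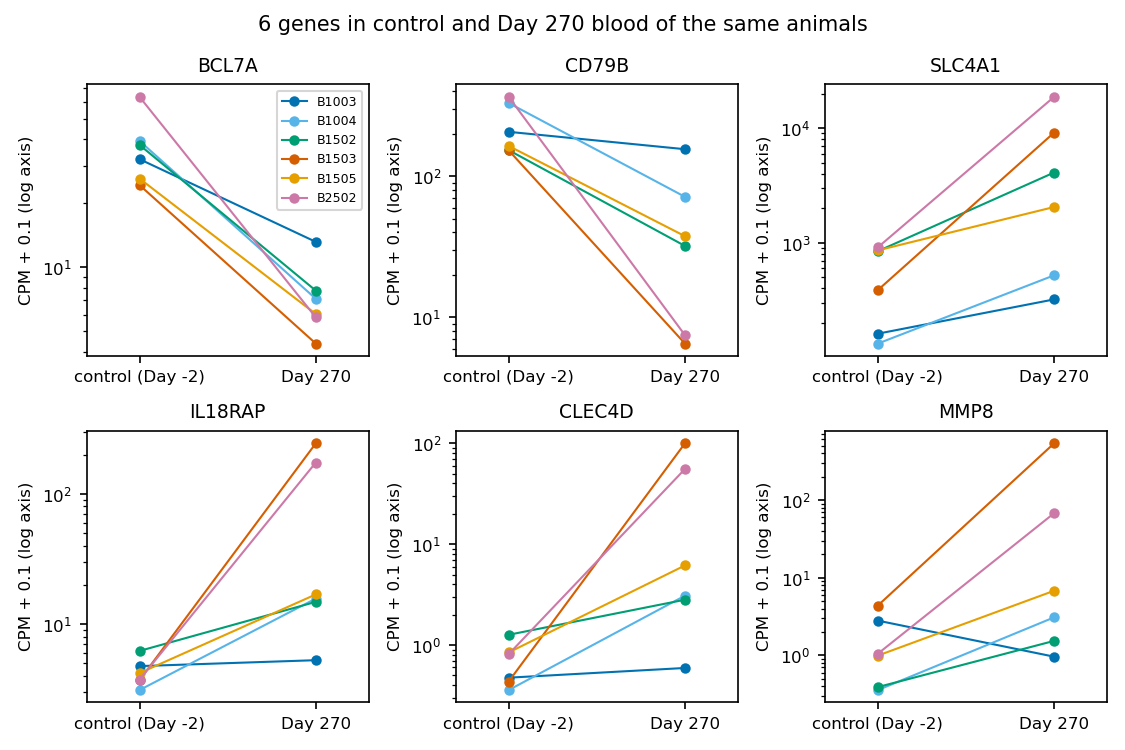
Points are scaled CPM of 6 genes plus 0.1, on a log axis, with 1 line per animal from control to Day 270. BCL7A and CD79B are lower on Day 270 in 6 of 6 animals, SLC4A1, IL18RAP and CLEC4D are higher in 6 of 6, and MMP8 is higher in 5 of 6, with B1003 below its control. The direction of CLEC4D in B1003 rests on few counts (0.376 CPM in the control, 0.494 on Day 270).

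Genes of MHC class II, which B cells and monocytes use to present peptides to T cells, had a median log2 fold change of -0.91 over 15 tested members. Of these, 4 were lower in 6 of 6 (background 12.7%) and 1 was without overlap (background 2.16%). MAMU-DOB, part of a class II chaperone of B cells, ranged from 57.9 to 131.6 CPM (median 75.7) in controls and from 1.36 to 62.9 (median 20.5) on Day 270. Its log2 fold change was -2.08 (SE 0.48, edgeR adjusted p = 0.0569), that of its partner MAMU-DOA -2.07, that of the class II chain MAMU-DQB1 -1.29 and that of RFX5, a factor that turns class II genes on, -0.73. Counts of these related genes may be split between near-identical copies. Without B1003 5 of the 15 were called lower (background 6.65%), and without B1503 and B2502 4 were (background 1.71%).

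Plasma cell genes had a median of -0.73 over 12 members, with 1 member lower and 1 higher in 6 of 6. CD38, an ectoenzyme of plasma cells and activated lymphocytes, ranged from 199.9 to 375 CPM in controls and from 41.9 to 255 on Day 270 (log2 fold change -1.29, edgeR adjusted p = 0.062), while XBP1, the factor of the secretory programme, was higher in 6 of 6 at a log2 fold change of 0.37 (edgeR adjusted p = 0.168). T cell genes had a median of -0.80 over 18 members, 3 of them lower in 6 of 6: the co-stimulatory receptor CD28 (-1.44), the co-receptor CD4 (-1.19) and the surface receptor CD5 (-1.06). CD28 ranged from 61.2 to 107.5 CPM in controls and from 7.60 to 79.8 on Day 270, with the lowest values, 7.60 and 11, in B1503 and B2502. List medians for T cells were 0.04 in B1003, -0.22 in B1004, -0.06 in B1502, -1.64 in B1503, -0.90 in B1505 and -1.98 in B2502. Of the 18 members, 7 were called lower without B1003 (background 6.65%) and 1 without B1503 and B2502 (background 1.71%).

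Genes of naive and resting lymphocytes had a median of -0.63 over 10 members, 6 of them lower in 6 of 6. The homing receptor CCR7 had a median of 145 CPM in controls and 48.8 on Day 270 (log2 fold change -1.78, SE 0.47, edgeR adjusted p = 0.063), and the factors LEF1 and TCF7 and the interleukin 7 receptor IL7R had log2 fold changes of -1.71, -1.51 and -1.15. Genes of cytotoxic and NK cells had a median of -0.07 over 19 members (0.04 with TMM scaling, so its sign turns), with 1 lower in 6 of 6. That member was CTSW, a cathepsin of cytotoxic cells, at -0.62 (edgeR adjusted p = 0.0768), and GZMB, granzyme B, was lower in 5 of 6 at -0.78 with a higher value in B1003.

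By count, erythroid genes were the group with the most members in 1 direction, while the shorter B cell list had a similar share (15 of 21). Of 37 erythroid genes tested, 26 were higher in 6 of 6 animals (background 7.24%) and 2 did not overlap (background 0.967%). With 6 animals 0 passed both thresholds, and the median log2 fold change was 1.62. SLC4A1, the band 3 anion exchanger of the red cell membrane, had 161 CPM in B1003, 132.2 in B1004, 846 in B1502, 387 in B1503, 860 in B1505 and 914 in B2502 before irradiation. On Day 270 it had 321, 521, 4108, 9158, 2055 and 18779 CPM in the same order. The Day 270 values of the 2 males lay within the range of all controls and those of the 4 females above it. The 2 males also had the lowest controls. Against the own control male B1004 rose from 132.2 to 521 CPM and female B1505 from 860 to 2055 CPM, and a difference between the sexes was not tested. The log2 fold change of SLC4A1 was 2.53 (SE 0.56, edgeR adjusted p = 0.0565), and 1.63 in the 4 animals other than B1503 and B2502 (edgeR adjusted p = 0.000384).

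The carbonic anhydrase CA2 had a log2 fold change of 2.20, and TRIM58, a ubiquitin ligase of late red cell precursors, had 2.15. TRIM58 ranged from 182 to 419 CPM in controls and from 399 to 11071 on Day 270. ALAS2, the first enzyme of haem synthesis in red cells, was higher in 6 of 6 at 1.59 (edgeR adjusted p = 0.126), and the haemoglobin chains HBA and HBB were at -0.45 and -0.48 (edgeR adjusted p = 0.641 and 0.73). HBA was lower in 4 of 6 animals and HBB in 3 of 6. Without scaling, HBA had 0.551 to 83.9 CPM and HBB 6.75 to 610 CPM in the 12 libraries, while ALAS2 had 2407 to 35206 CPM. Little haemoglobin RNA was therefore counted, and no direction of haemoglobin RNA is read from these 2 genes. The haemoglobin genes are related in sequence, and their counts may be shared between copies. List medians were 0.62, 0.86, 0.97, 3.17, 0.96 and 3.4 in B1003, B1004, B1502, B1503, B1505 and B2502. Without B1003 26 members were called higher (background 6.62%), and without B1503 and B2502 23 were (background 2.49%). Summed scaled CPM of the list was 4918 to 12243 in controls and 8427 to 143512 on Day 270. In B1503 and B2502 ALAS2 alone took 2.08% and 3.52% of all counts, and the part of this in the low lymphocyte values of these animals was not tested.

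**Figure D3:**
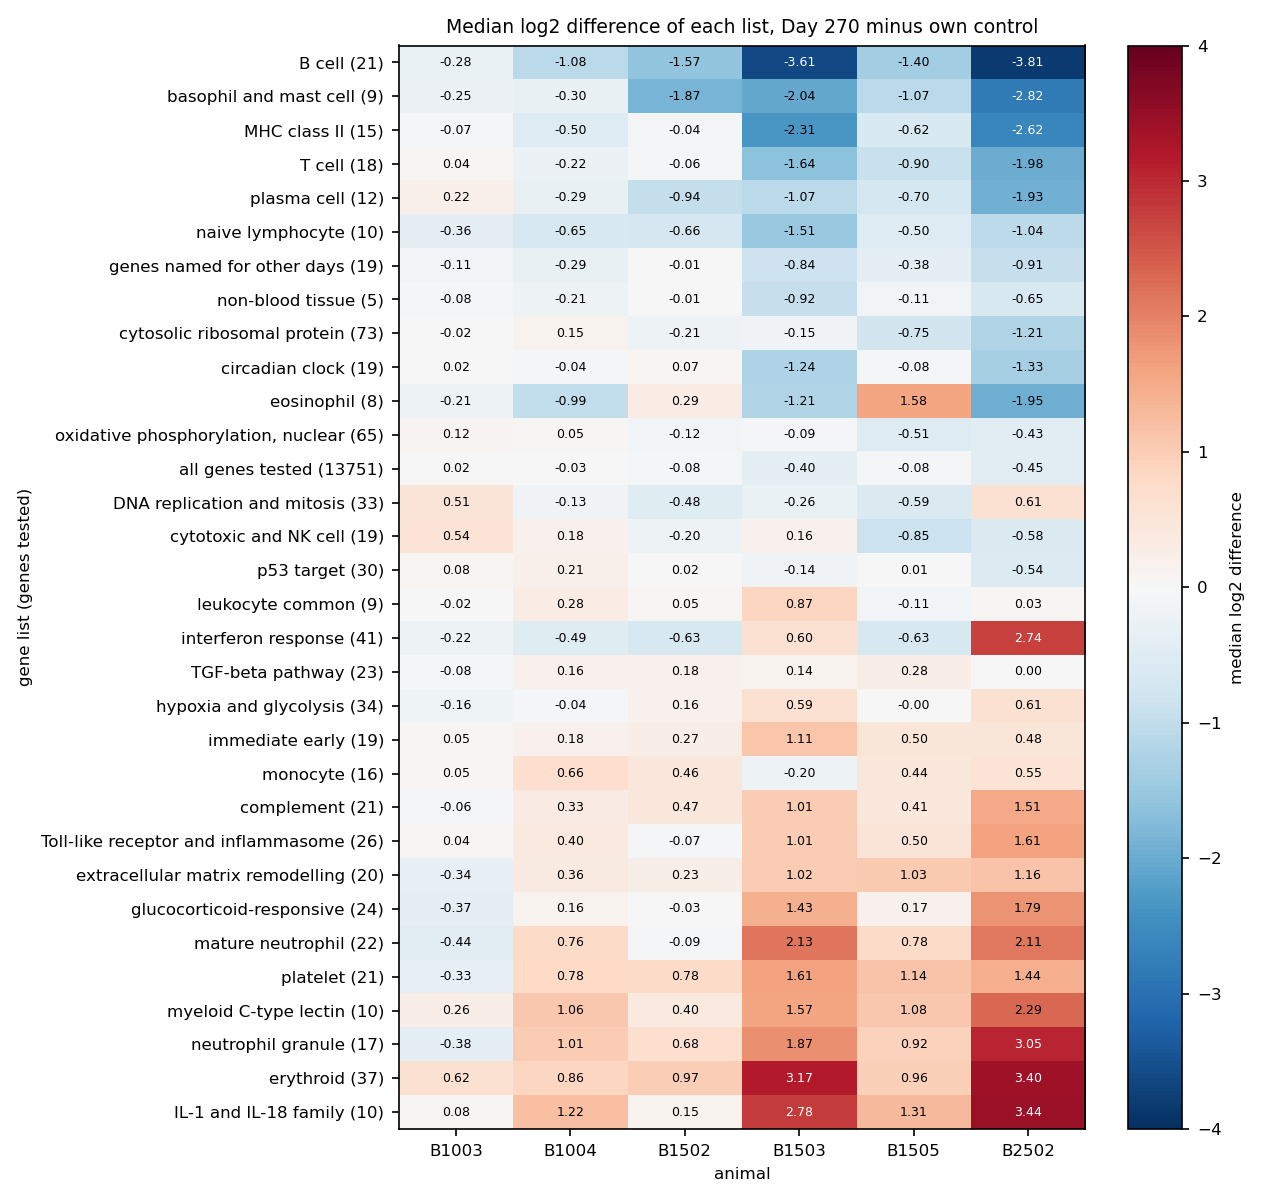
Each cell gives the median log2 difference, Day 270 minus own control, of a gene list (rows, with the number of genes tested) in 1 animal (columns), with colour limits at -4 and 4. The B cell list is below 0 and the erythroid list above 0 in 6 of 6 animals, B1503 and B2502 have the largest values in both, and the interferon list is at 2.74 in B2502.

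Receptors and ligands of the interleukin 1 and interleukin 18 family had the highest median, 1.63 over 10 tested members of 20 listed, with 4 higher in 6 of 6. It was close to the erythroid median of 1.62. List medians were 0.08 in B1003, 1.22 in B1004, 0.15 in B1502, 2.78 in B1503, 1.31 in B1505 and 3.44 in B2502. Without B1503 and B2502 the median was 0.64, below the erythroid median of 0.86. IL18RAP, the accessory chain of the interleukin 18 receptor, had 4.66 CPM in B1003, 3.01 in B1004, 6.12 in B1502, 3.61 in B1503, 4.10 in B1505 and 3.65 in B2502 before irradiation. On Day 270 it had 5.18, 15.6, 14.7, 244, 16.8 and 174 CPM in the same order. The value of B1003 was within the control range, 3 animals had near 15 CPM, and B1503 and B2502 were above 100 CPM. The log2 fold change was 2.86 (SE 0.73, edgeR adjusted p = 0.062), and 3.43 without B1003 (edgeR adjusted p = 0.0162).

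IL18R1, the binding chain of the same receptor, had 981 CPM in B1503 and 634 in B2502 on Day 270 against 5.67 to 18.6 in controls, and 13.2 to 30.4 in the other 4 animals. The cytokine IL18 was higher in 6 of 6 at a log2 fold change of 1.48, and IL1RN, the interleukin 1 receptor antagonist, at 1.78 (SE 0.37, edgeR adjusted p = 0.0565). IL1R2, the decoy receptor of interleukin 1, which glucocorticoids raise, was higher in 5 of 6 animals, with 2143 CPM in B1503, 837 in B2502 and 9.62, 60 and 75 in B1003, B1004 and B1502, against 12.1 to 69.4 in controls (log2 fold change 2.32, SE 0.93, edgeR adjusted p = 0.124). IL1RL1, the interleukin 33 receptor, was higher in 3 of 6, with 408 and 371 CPM in B1503 and B2502 and 5.07 to 18.7 in the other 4 (2.06, SE 1.12, edgeR adjusted p = 0.227). Without B1003 7 of the 10 members were called higher (background 6.62%), and without B1503 and B2502 4 were (background 2.49%).

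Neutrophil granule genes had a median of 1.29 over 17 members with 1 higher in 6 of 6, and genes of mature neutrophils had 0.88 over 22 with 2 higher in 6 of 6. MMP8, the neutrophil collagenase, was 0.258 to 4.28 CPM in controls and 0.864, 2.99, 1.44, 535, 6.69 and 67.5 CPM on Day 270 in B1003, B1004, B1502, B1503, B1505 and B2502. It was lower in B1003 and higher in the other 5 (log2 fold change 3.95, SE 0.98, edgeR adjusted p = 0.0598), and without B1003 the value was 5.18 (edgeR adjusted p = 0.00271). S100A12, a calcium-binding alarmin, was higher in 6 of 6 at 2.53, and LCN2, an iron-scavenging granule protein, in 5 of 6 at 2.50. Without B1003 8 granule genes and 11 genes of mature neutrophils were called higher (background 6.62%), and without B1503 and B2502 0 were in either list (background 2.49%), with medians of 0.68 and 0.31.

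C-type lectins of myeloid cells, which bind fungal and mycobacterial sugars, had a median of 1.10 over 10 members, 3 of them higher in 6 of 6. CLEC4D ranged from 0.258 to 1.17 CPM in controls and from 0.494 to 99.9 (median 4.53) on Day 270, with the highest log2 fold change of any gene named here, 4.26 (SE 0.87, edgeR adjusted p = 0.0565). CLEC7A, also called dectin-1, had 15.8 to 50 CPM in controls and 44 to 123.6 on Day 270, at 1.46 (SE 0.25, edgeR adjusted p = 0.0527). Its log2 difference ranged from 0.60 in B1003 to 2.48 in B2502. CLEC12A, an inhibitory lectin, was higher in 6 of 6 at 1.14. Outside the list CSTA, a cysteine protease inhibitor of myeloid cells, did not overlap, with 0.084 to 1.05 CPM in controls and 1.23 to 23.6 on Day 270, at 3.64 (SE 0.62, edgeR adjusted p = 0.0527).

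Toll-like receptor and inflammasome genes had a median of 0.52 over 26 members, with 4 higher and 1 lower in 6 of 6. TLR5, the flagellin receptor, and TLR1 had log2 fold changes of 1.69 and 1.17, IRAK3, an inhibitor of Toll-like receptor signals, had 1.99, and IRAK2, a kinase of the same pathway, had -0.50. Complement genes had a median of 0.46 over 21, with 5 higher (background 7.24%) and 2 lower (background 12.7%) in 6 of 6. The receptor C3AR1 did not overlap, with 7.22 to 17.0 CPM in controls and 18.1 to 217 on Day 270 (2.19, SE 0.53, edgeR adjusted p = 0.0598). C5 and its receptor C5AR1 had 1.87 and 1.5, and CR2, a complement receptor of B cells, had -1.55. Monocyte genes had a median of 0.46 over 16, with 1 higher in 6 of 6, the lysozyme gene LYZ at 1.05, and CD163, a scavenger receptor for haemoglobin, was higher in 5 of 6 at 1.33.

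Eosinophil genes had a median of -0.33 over 8 members, and none kept 1 direction in 6 animals. EPX, eosinophil peroxidase, ranged from 0.084 to 93.2 CPM in controls. Genes of basophils and mast cells had a median of -1.32 over 9, with 4 lower in 6 of 6. CPA3, a protease of these cells, had 1.65 to 5.37 CPM in controls and at most 1.36 on Day 270, when 3 of 6 libraries had no count, which allows up to 0.480, 0.584 and 0.715 CPM in them (3 counts, counting error only). Its log2 fold change of -2.91 (SE 0.64, edgeR adjusted p = 0.0565) rests on few counts and is no bound. GATA2, a factor of basophils and of progenitors, was lower in 6 of 6 at -0.70, and MS4A2, a chain of the IgE receptor, at -1.99, with no count in the Day 270 libraries of B1503 and B2502, so that this value too is no bound.

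Platelet genes had a median of 0.98 over 21 members, with 4 higher in 6 of 6, and 20 of the 21 had a log2 fold change above 0. GNG11, a G protein subunit, ranged from 6.63 to 20.5 CPM in controls and from 17.1 to 50.6 on Day 270 (1.44, SE 0.28, edgeR adjusted p = 0.0565), and GP1BB, a chain of the von Willebrand factor receptor, had 1.34. List medians were -0.33 in B1003, 0.78 in B1004, 0.78 in B1502, 1.61 in B1503, 1.14 in B1505 and 1.44 in B2502. Without B1003 17 members were called higher (background 6.62%), and without B1503 and B2502 6 were (background 2.49%).

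Interferon response genes had a median of 0.09 over 41 members that hid animals of opposite sign. List medians were -0.22 in B1003, -0.49 in B1004, -0.63 in B1502, 0.60 in B1503, -0.63 in B1505 and 2.74 in B2502. CMPK2, a mitochondrial nucleotide kinase induced by interferon, was the 1 member higher in 6 of 6 (1.96, SE 0.50, edgeR adjusted p = 0.0614), and IFIT1, which binds viral RNA, had 521 CPM in B2502, 263 in B1503 and 23.3 to 94 in the other 4, against 24.7 to 75 in controls. In the 4 animals other than B1503 and B2502 23 of the 41 members were lower in 4 of 4 (background 15.1%) and 1 was higher (10.5%), and 7 were called lower (background 1.71%) and 1 higher (background 2.49%).

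Targets of p53, the factor that responds to DNA damage, had a median of -0.07 over 30 members (0.02 with TMM scaling), with 4 higher and 2 lower in 6 of 6. CDKN1A, the p21 cell cycle inhibitor, had a median of 52.2 CPM in controls and 76.8 on Day 270 (0.80, SE 0.22, edgeR adjusted p = 0.064), TP53INP1 had 1.18 and PHLDA3 had -1.35. Glucocorticoid-responsive genes had a median of 0.74 over 24 that came from B1503 and B2502 (1.43 and 1.79, against -0.37 to 0.17 in the other 4), and PIK3IP1 alone kept 1 direction in 6 of 6, at -0.89. ZBTB16, a gene that glucocorticoids raise strongly, had 565 CPM in B1503, 370 in B2502 and 14.8 to 20.8 in the other 4, against 8.27 to 27.2 in controls (1.39, SE 0.75, edgeR adjusted p = 0.22). Dexamethasone courses per animal were not given in the sources used here, and their part in these values was not tested.

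Genes of hypoxia and glycolysis had a median of 0.35 over 34, with 3 higher (background 7.24%) and 2 lower (background 12.7%) in 6 of 6. This median came from B1503 and B2502 (0.59 and 0.61, against -0.16 to 0.16 in the other 4). Without these 2 animals it was 0.02. LDHA, lactate dehydrogenase A, had a median of 148 CPM in controls and 304 on Day 270, and its highest control lay just below its lowest Day 270 value (0.99), and BNIP3L, a mitophagy receptor of maturing red cells, had 1.71. Genes of the TGF-beta pathway had 0.22 over 23, with SMAD2 higher (0.32) and PMEPA1 lower (-0.96) in 6 of 6, and genes of extracellular matrix remodelling had 0.55 over 20 with 0 in 1 direction in 6 of 6. PLAUR, the urokinase receptor, had 366 CPM in B1503 and a log2 fold change of 1.78 (edgeR adjusted p = 0.107). These pathways are known from fibrosis, and their genes were measured in blood and not in lung.

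Genes of DNA replication and mitosis had a median of -0.13 over 33, beside -0.14 for all genes. Of the 33, 4 were lower (background 12.7%) and 1 was higher (background 7.24%) in 6 of 6, so no direction of the list is read from them. MCM5 and MCM3, parts of the replicative helicase, did not overlap (background 2.16%), with MCM5 at 24 to 39 CPM in controls and 7.87 to 20.4 on Day 270 (-1.14, SE 0.23, edgeR adjusted p = 0.0565), whereas NUSAP1, a spindle protein, was higher in 6 of 6 at 0.72. Cytosolic ribosomal protein genes had -0.38 over 73, with 14 lower and 1 higher in 6 of 6, and RPS16 had -1.19. Nuclear genes of oxidative phosphorylation had -0.19 over 65, with 7 higher (background 7.24%) and 10 lower (background 12.7%) in 6 of 6. Among them were COX7B at 1.53, ATP5F1E at 1.24, NDUFA3 at 0.97 and NDUFA13 at -0.88.

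Immediate early genes had a median of 0.35 over 19 with 5 higher in 6 of 6, including EGR1 at 1.28, ZFP36 at 1.00 and KLF6 at 0.70. Circadian clock genes had -0.35 over 19 with 3 lower in 6 of 6 (background 12.7%). This median came from B1503 and B2502 (-1.24 and -1.33, against -0.08 to 0.07 in the other 4). Without these 2 animals it was 0.02, so its sign turns. Of the list, 2 members did not overlap (background 2.16%). BHLHE41, a repressor of the clock, was 1 of them (12.2 to 27 CPM in controls, 3.12 to 6.29 on Day 270, log2 fold change -1.67, SE 0.31, edgeR adjusted p = 0.0527). CRY2, which also did not overlap, had -0.77, and NR1D1 had -0.68. Genes common to leukocytes had 0.08 over 9, with SRGN, the proteoglycan of granules, higher in 6 of 6 at 0.94. Of genes of other tissues 5 of 18 were tested, with a median of -0.40, and CDH1, E-cadherin, which red cell precursors also carry, was higher in 6 of 6 at 1.74, while PECAM1, an adhesion molecule of endothelium, platelets and leukocytes, was lower in 6 of 6 at -0.40.

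Among the 12 highest and 12 lowest genes that kept 1 direction in 6 of 6 animals, several belonged to none of the cell type and pathway lists. SOX5, a factor carried by subsets of B cells, ranged from 14.8 to 107.4 CPM in controls and from 1.36 to 10.5 on Day 270, without overlap (log2 fold change -2.68, SE 0.39, edgeR adjusted p = 0.0527). SOX4, a factor of early lymphocytes, had -2.44 and the signalling ligand WNT7B had -2.42, both without overlap, and AEBP1, ELFN2 and CCDC187 had -2.28, -2.29 and -2.21. AEBP1 had no count in the Day 270 library of B1503, so its value is no bound. On the other side SCIN, an actin-severing protein of megakaryocytes, had 2.78, UNC5D, a netrin receptor, 2.63, the scaffold protein MPP2 2.6, TSPO2, a cholesterol-binding protein of red cell precursors, 2.59, SGMS2, a sphingomyelin synthase, 2.55 and KANK2 2.52. The edgeR adjusted p of these 12 genes lay between 0.0527 and 0.0673.

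A list of 20 genes had been named for other days or comparisons of these same samples and is no independent evidence of direction. Of its 19 tested members, 4 were higher and 6 lower in 6 of 6, with 1 (background 0.967%) and 5 (background 2.16%) without overlap. Besides SOX5, WNT7B, CSTA and CLEC4D, described above, DENND2A was without overlap at -2.61 (0.195 to 5.46 CPM on Day 270, 9.25 to 47.6 in controls), and NUDCD3 and CRY2 were also without overlap at -0.90 and -0.77. PCDHGC3 had -1.47, HDAC11, which red cells carry, 1.96, and AK7 1.44. CCDC141 was lower in 5 of 6 at -3.11 from low counts, with 2 libraries at no count on Day 270, and AQP3 and SUCNR1 were higher in 5 of 6 at 1.43 and 0.97. PTPRF, BCL6B, PLXNA2, PMP22 and TNFSF14 did not keep 1 direction, with edgeR adjusted p of 0.154 to 0.573.

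Day 270 was compared with Day 30 because all 6 Day 30 libraries carried no number, as did 5 of the 6 Day 270 libraries. With edgeR 0 genes passed both thresholds (0%, lowest adjusted p 0.134), 2038 genes had an unadjusted p under 0.05, and DESeq2 called 353. A total of 380 genes were higher (2.76%) and 715 lower (5.2%) in 6 of 6 animals. B cell genes had a median of -1.79, with 6 of 21 lower in 6 of 6, and per animal the median was 0.51 in B1003 and between -4.14 and -0.87 in the other 5. Erythroid genes had 0.48, with 0 of 37 in 1 direction in 6 of 6. BCL7A was lower in 6 of 6, with 19.5 to 57.8 CPM on Day 30 (log2 fold change -2.06, SE 0.34, edgeR adjusted p = 0.163). Platelet genes had 1.07, with 6 of 21 higher in 6 of 6, and the interleukin 1 and 18 family had 1.29. Without B1003 87 genes were called, 56 higher and 31 lower.

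Day 30 itself, set against the same controls, had 74 genes past both thresholds (0.538%), 69 higher and 5 lower. Its medians were -0.14 for B cells, 1.17 for erythroid genes, 0.06 for the interleukin 1 and 18 family and -0.22 for platelets, beside -1.84, 1.62, 1.63 and 0.98 on Day 270. In the erythroid list 22 of 37 members were higher in 6 of 6 on Day 30 (background 3.87%). SLC4A1 had a median of 616 CPM in controls, 1796 on Day 30 and 3081 on Day 270, and CD79B had 185, 126.2 and 34.7. The 2 comparisons share their control libraries, so their values are given side by side only.

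Day 240 was the draw before Day 270. B1505 carried a library number of the later range on Day 240 and none on Day 270, so its pair crosses the library series. B1003 carried such a number on both days, and the remaining animals carried none on either. With edgeR 0 genes passed both thresholds (0%, lowest adjusted p 0.286), 1240 had an unadjusted p under 0.05, and DESeq2 called 42. A total of 170 genes were higher (1.24%) and 401 lower (2.92%) in 6 of 6. B cell genes had a median of 0.40, from 1.67 in B1003 and 1.16 in B1004 to -0.79 in B1503 and -0.82 in B2502, and erythroid genes had -0.02. Platelet genes had the largest median, 0.97, with 2 of 21 higher in 6 of 6 and only B1003 below 0 (-0.56). MYL9, the myosin light chain of platelets, had 1.28 (edgeR adjusted p = 0.314) against Day 240. Without B1003 46 genes were called, 41 higher and 5 lower.

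Day 240 against the same controls had 1079 genes past both thresholds (7.85%), 528 higher and 551 lower, and it shares those controls with Day 270. Its medians were -2.22 for B cells, with 21 of 21 lower in 6 of 6 (background 13.1%), 1.67 for erythroid genes and -0.15 for platelets. BCL7A had 3.24 to 7.07 CPM on Day 240 and 4.29 to 13.1 on Day 270. In B1003 the B cell median was -2.00 on Day 240 and -0.28 on Day 270, while in B2502 it was -3.10 and -3.81.

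**Figure D4:**
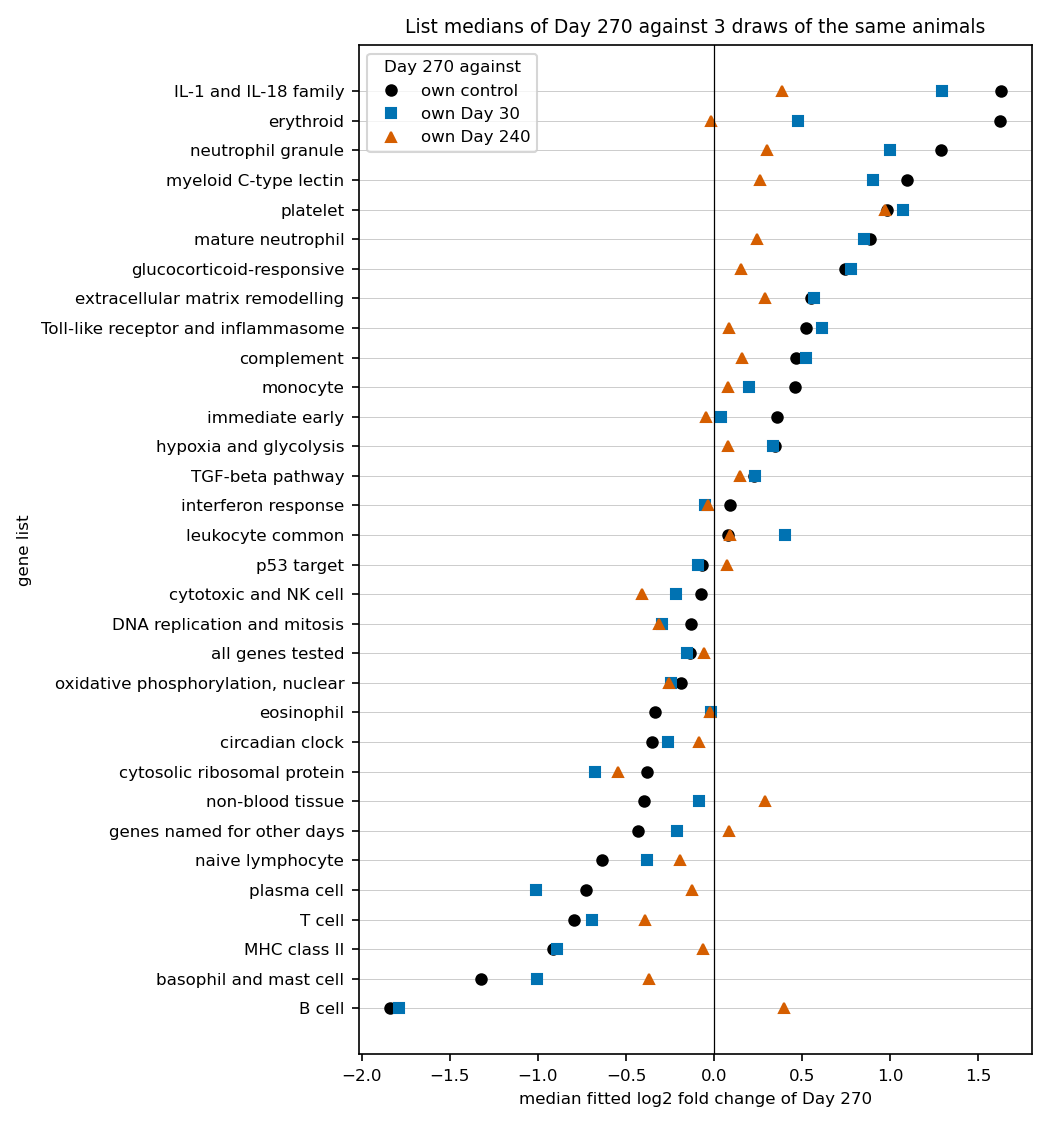
Points are the median fitted log2 fold changes of each gene list for Day 270 against the own control (circles), own Day 30 (squares) and own Day 240 (triangles). The B cell list is at -1.84, -1.79 and 0.40, and the erythroid list at 1.62, 0.48 and -0.02.

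Over the whole course the B cell list had medians between -2.21 and -0.83 on Day 3 in the 6 animals, between -0.08 and 0.32 on Day 60, and between -2.15 and -0.69 on Day 120. CD79B had a median of 148 CPM on Day 60, 67.8 on Day 90 and 45.6 on Day 120. BCL7A followed with 26.3, 20.2 and 8.95 CPM. IL18RAP had 3.06 CPM on Day 60, 17.6 on Day 120 and 16.2 on Day 270, and SLC4A1 had 625, 1106 and 3081 CPM. Neither course was a steady rise, since IL18RAP had a median of 8.37 CPM on Day 240 and SLC4A1 had 3409 CPM on Day 15. The Day 60 libraries and those of later draws carried no number or a number of the later range, while the controls carried numbers up to 97.

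**Figure D5:**
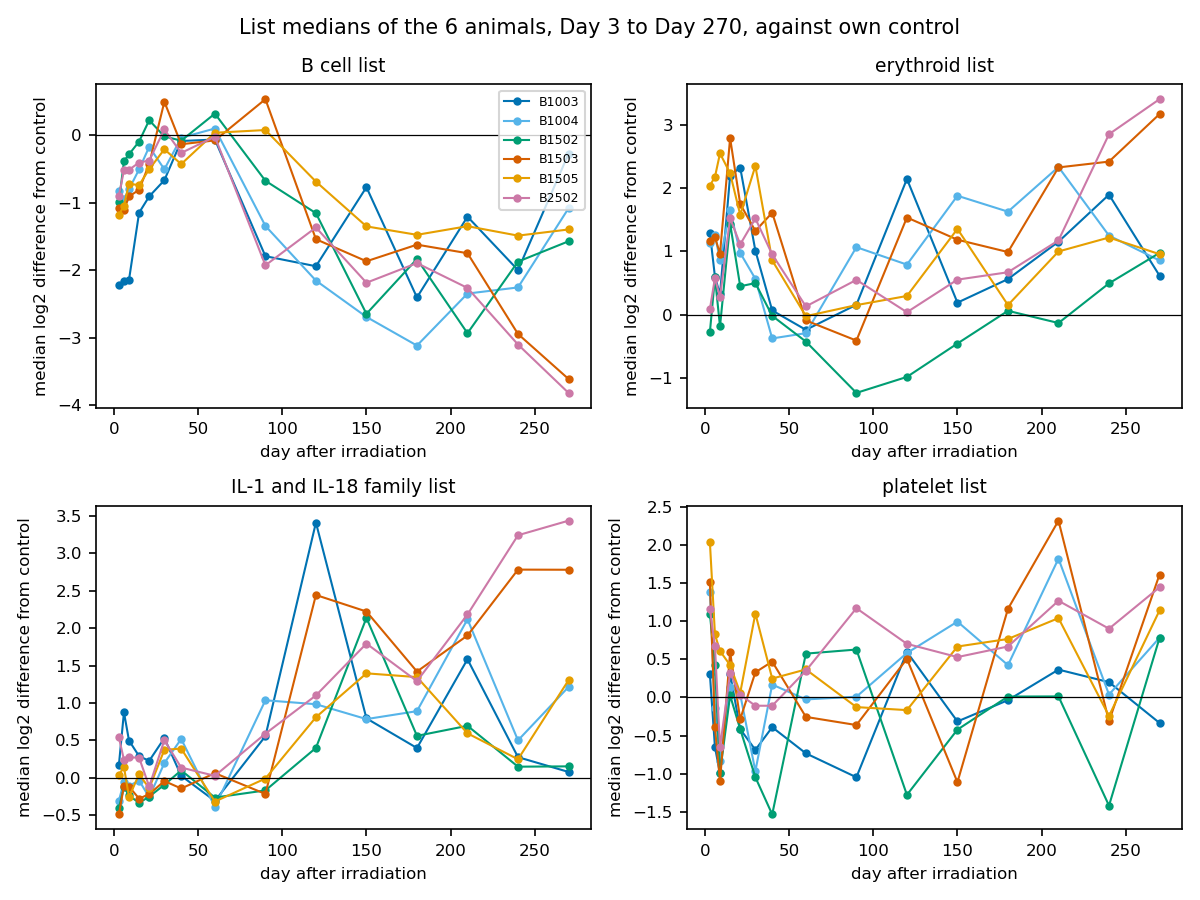
Lines show, for each of the 6 animals, the median log2 difference from the own control of 4 gene lists (B cell, erythroid, interleukin 1 and 18 family, platelet) at 15 draws from Day 3 to Day 270. The B cell medians are near 0 on Day 60 and below 0 in 6 of 6 animals from Day 120 on, and the erythroid medians are highest in B1503 and B2502 on Day 270.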

How the data were processed

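Whole blood RNA libraries made after ribosomal RNA removal with a stranded kit were sequenced. The submitters' processing notes name cutadapt 2.10, STAR 2.7.6a, Subread 2.0.1 and the build Mmul_10, and the strand setting of the counting is not given in the sources used here. The authors deposited raw counts per gene for 304 samples, which were used here, and a table of log2 normalized values, which was used for 1 alternative. Columns were matched to samples by title.

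The filter kept 13751 of 21070 genes, those reaching 3 counts in 80% or more of the samples, and libraries were scaled by their upper quartile. Day 270 was compared with the control, Day 30 and Day 240 of the same animal in edgeR 4.0.16 (quasi-likelihood test, R 4.3.3), blocked by animal, since both samples of a pair come from 1 animal. Thresholds were 0.05 for the p-value after Benjamini-Hochberg adjustment and 1.5 for the fold. CPM values use the scaled library sizes, and log2 values per animal use a prior count of 2. Intervals and floors cover counting error only, and p-values cover the spread between the 6 animals. Scripts were tested on simulated data.

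The text names genes that passed, the 12 highest and 12 lowest log2 fold changes with 1 direction in 6 of 6 animals and a mean of at least 5 CPM, up to 4 genes of each of 31 lists, and 20 genes named for other days. Other members named with a value (such as ALAS2, HBA and HBB) were chosen after their values were seen. The animals and lists were chosen with earlier results of these data known. Alternatives were fits without the block, TMM scaling, DESeq2 1.42.0, limma 3.58.1 on the log2 values and with voom, other filters, other quasi-likelihood settings, more samples in the fit and leaving out each animal. Some items of these lists are not reported here.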

Additional observations from a re-analysis of the deposited data

Results flagged for a closer look

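In 158 genes and gene lists checked, the highest or lowest of the 6 animals stood far from the rest in 5, and chance alone flags about 1 in 20 groups. The log2 difference of IER3, an immediate early gene, was 3.14 in B1503, above the other 5 animals. NDUFA3, a subunit of respiratory complex I, was at 1.85 in B1503, above the other 5. NDUFA13, of the same complex, was at -0.11 in B1003, the least negative of the 6, and SUCNR1, the succinate receptor, was at -0.24 in B1003, the 1 animal below 0. The interferon response list had a median of 2.74 in B2502, the animal at 10.7 Gy, above the other 5.

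The median of the nuclear oxidative phosphorylation list was above 0 in both males (0.12 in B1003 and 0.053 in B1004) and below 0 in the 4 females (-0.12 in B1502, -0.093 in B1503, -0.51 in B1505 and -0.43 in B2502). The median of all genes was 0.02 in B1003, -0.03 in B1004, -0.08 in B1502, -0.40 in B1503, -0.08 in B1505 and -0.45 in B2502, so the list lay above all genes in B1503 and B2502 as well as in both males. This difference between the sexes was not tested, and it was found among many lists.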

How the results depend on the processing

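The count of genes past both thresholds against the control was 1, and it depended on the setting: 2383 with DESeq2 (1393 higher, 990 lower), 300 with limma-voom, 75 higher and 61 lower without a filter on low counts (1.4e+02 in all), 578 in the 4 animals other than B1503 and B2502 (a set chosen after seeing the data), 3740 with all draws of the 6 animals in the fit and 4422 with all samples and the library series as a covariate. Leaving out 1 animal gave 0 to 1825, the highest without B1003. TMM scaling, filterByExpr, the older and the robust quasi-likelihood fits and limma on the deposited log2 values each gave 1. Against Day 30 the count was 0, with 353 by DESeq2 and 0 to 87 when 1 animal was left out. Against Day 240 it was 0, with 42 by DESeq2 and 0 to 46 when 1 animal was left out. The highest of both ranges was without B1003. Why DESeq2 and the larger fits gave more calls was not tested.

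Samples were paired because both come from 1 animal. The fit without the replicate block gave 5 genes against the control and 0 against Day 30 and Day 240.

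Of the named genes, PMP22 alone turned direction, from -0.51 to 0.082 with all samples and the library series as a covariate, from few counts. BCL7A lost its call in 4 settings, each leaving out 1 animal. Day 270 libraries were shallower than all controls. CPA3 had few counts on Day 270, and MMP8 and CLEC4D had few counts in the controls, so their fold changes are imprecise. In B1003 CLEC4D had few counts in both libraries (0.376 CPM in the control, 0.494 on Day 270), so its direction there is imprecise too.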
